A study of Mus musculus with 8 samples.

Results

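The 7 sialyltransferase genes described here are St3gal1, St3gal2, St3gal3, St3gal4, St3gal5, St3gal6 and St6gal1, taken by name from the 22075 genes of the deposited table. All 7 had a value in each of the 8 libraries and all 7 passed the filter on low values (2 or more libraries with an FPKM of 1 or higher, met by 11877 genes). St3gal5 passed it through the STAT3-KO libraries with IL-33 alone, and St3gal6 would not have passed without the control libraries. FPKM counts the fragments of a gene relative to its length and to the depth of its library, so levels can be compared between genes.

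The libraries came from group 2 innate lymphoid cells (ILC2s), which lack antigen receptors and are a main source of IL-5 and IL-13 in the lung. They were purified from lungs of C57BL/6 mice given papain for a short time, an allergen that provokes such cells, and were grown for about 5 days with IL-2 at 10 ng/ml. The labels name Stat3fl/fl and VavicreStat3fl/fl mice. WT cells are taken to be the former, with loxP-flanked alleles and no recombinase, and STAT3-KO cells the latter, whose Cre acts throughout the blood lineage, so that the loss of STAT3 and the presence of Cre cannot be told apart. The 4 groups, of 2 libraries each, were WT control, STAT3-KO control, and both genotypes after 2 more days with 10 ng/ml of IL-33, an alarmin that activates ILC2s; the medium of the controls during those days, the age of the mice and the origin of the replicates are not in the labels. P values therefore measure the spread between these libraries, which may be technical.

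Sialyltransferases are Golgi enzymes that move sialic acid from its activated form, CMP-sialic acid, to the outer end of a glycan. The ST3Gal enzymes and ST6Gal1 attach it to different positions of galactose, and the resulting linkages are read by different lectins, among them selectins and Siglecs. In lymphocytes these caps are known for their part in selectin ligands, in cell survival and in hiding galactose from galectins.

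Stat3 itself measured between 41.7 and 55.3 FPKM in the WT libraries and between 8.03 and 16 in the STAT3-KO libraries, with no overlap. Depth, recovered from the steps of the FPKM values, was between 15843665 and 19905707 reads per library, and Pearson's r between replicates, across genes, was 0.971 to 0.983. All 13 ILC2 markers were detected, with sums of 2859.4 to 9699.3 FPKM per library. With IL-33 these sums rested largely on Il5 (up to 3601.8) and Il13 (up to 2783.4). In STAT3-KO, Il5, Il13 and Il2ra were higher with IL-33 than in control, and the other ILC2 markers were lower. Thy1 went from 19.6 and 21.3 FPKM in control to 2.56 and 2.37, and Il17rb from 26.7 and 27.9 to 0.232 and 0.471. The sums of markers of other cells were lower than those of ILC2 markers. T cell (7 markers, 6.02 to 11.6), granulocyte (5, 0 to 0.907), dendritic cell (5, 2.3 to 7.28) and macrophage and monocyte lists (6, 0.312 to 6.55) stayed low in every library. Epithelial and stromal markers summed to 21.2 to 29.6 FPKM, mostly of Pecam1, which leukocytes also make, with Epcam at no more than 9.5. B cell markers rested on Cd79b, with Ms4a1 and Pax5 without a value or at 0, and summed to 3.26 to 8.15 FPKM in control and 13.1 to 21.9 with IL-33. NK cell and ILC1 markers, mainly Tbx21 and Prf1, were highest in STAT3-KO control (26.7 to 29.3 FPKM) and lowest in WT with IL-33 (2.51 to 2.61). Mast cell and basophil markers summed to 299 to 326 FPKM in WT control, 111 to 140 in STAT3-KO control, 127 to 155 in WT with IL-33 and 7.49 to 7.77 in STAT3-KO with IL-33. They rested on Cpa3 and Mcpt8, while Fcer1a, Ms4a2 and Tpsb2 had no value or were at 0. In WT, Cpa3 went from 326 and 299 FPKM in control to 34.6 and 41.8 with IL-33, and Mcpt8 from 0 and 0.126 to 92.8 and 114. Mcpt8 was at no more than 0.246 in STAT3-KO. The sum in WT with IL-33 was thus mostly of Mcpt8, and the other sums were almost all of Cpa3. The part of these markers in the results below was not tested, and in such bulk samples fewer cells of a type and less RNA per cell cannot be told apart.

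In control cells of both genotypes the order of the 7 levels began with St3gal6 (39.1 FPKM in WT and 38.2 in STAT3-KO), St6gal1 (30.4 and 29.2), St3gal2 (19 and 23.7) and St3gal4 (10.8 and 10.8). St3gal1 (3.85 and 4.19) and St3gal3 (3.88 and 3.9) followed with overlapping libraries, and St3gal5 (0.193 and 0.232) was lowest. After IL-33 the order was another one, and it differed between the genotypes. In WT cells it ran from St3gal4 (20.9) over St3gal1 (15.2) and St3gal2 (14.9), whose libraries overlapped, to St6gal1 (11.8), St3gal3 (2.19), St3gal5 (0.406) and St3gal6 (0.338), the last pair again overlapping. In STAT3-KO cells it ran from St6gal1 (33) over St3gal2 (11.3) to St3gal1 (8.23), St3gal4 (7.94) and St3gal3 (7.05), with overlap between neighbours in these last 3, and ended with St3gal5 (2.54) and St3gal6 (0.695).

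**Figure D1:**
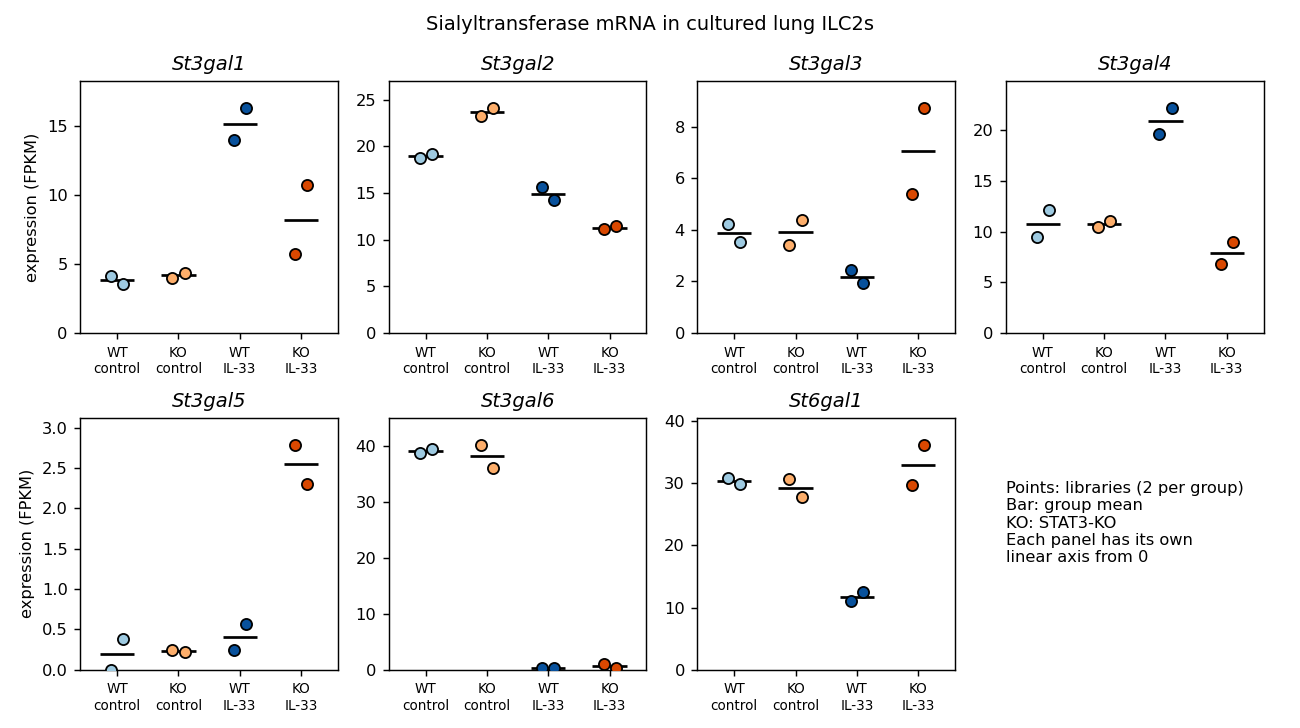
Expression of the 7 sialyltransferase genes in FPKM (vertical axes, linear from 0, each panel with its own range) in the 4 groups, with a point for each of the 2 libraries and a bar for the group mean. St3gal6 is at 36.1 to 40.2 in the control libraries and at 0.313 to 1.03 with IL-33, while St6gal1 is low in the WT libraries with IL-33 alone (11 and 12.5).

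The first question is how these genes respond to IL-33 in WT cells. Of the 7 genes, 2 rose (St3gal1 and St3gal4), 2 fell (St3gal6 and St6gal1) and 3 were not called. Of all tested genes 36.1% were called in this comparison, 14.5% higher and 21.6% lower, at an adjusted p under 0.05 (limma, Benjamini-Hochberg over 11877 genes), so the count of 4 of 7 is read against that share. St3gal6 would not have passed the filter without the control libraries of both genotypes, where it is high. Its call was thus in part set by the filter, and without this gene 2 of 6 rose and 1 fell. The split of all genes turned under median-of-ratios rescaling, to 2312 higher and 1867 lower from 1724 and 2561 as deposited, and in STAT3-KO to 3161 and 2742 from 2425 and 3638. The median difference was -0.33 over the 7 genes and -0.14 over all tested genes on the scale of log2(FPKM + 1), which is the scale of every difference below, given with its standard error (SE). Leaving out any 1 library gave between 4 and 5 called members.

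The second question is the same for STAT3-KO cells. Here 3 of the 7 rose (St3gal1, St3gal3 and St3gal5), 2 fell (St3gal2 and St3gal6) and 2 were not called, against 51% called among all genes, 20.4% higher and 30.6% lower. St3gal5 and St3gal6 passed the filter through the side where they are high, and without them 2 of 5 rose and 1 fell. The median was 0.17 for the 7 genes and -0.18 for all. Between 3 and 5 members were called when 1 library was left out.

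The remaining comparisons set the genotypes against each other. In control cells none of the 7 passed limma's threshold and 1, St3gal2, had an unadjusted p under 0.05; among all genes 0.463% were called, 0.253% higher and 0.21% lower in STAT3-KO. With IL-33, 3 members were higher in STAT3-KO (St3gal3, St3gal5 and St6gal1) and 3 lower (St3gal1, St3gal2 and St3gal4), against 32.6% of all genes, 16.3% higher and 16.4% lower. Without St3gal5, which was tested only because it was high in STAT3-KO with IL-33, 2 of 6 were higher and 3 lower. The test of the difference between the IL-33 responses, STAT3-KO minus WT, called 3 members higher (St3gal3, St3gal5 and St6gal1) and 2 lower (St3gal2 and St3gal4). Among all genes 15.1% were called, 6.72% higher and 8.43% lower. Here too St3gal5 was tested only through STAT3-KO with IL-33, and with no filter limma gave it an adjusted p of 0.0752. Without St3gal5 the members called higher are St3gal3 and St6gal1. Without 1 library the members called fell to between 3 and 5 for the genotypes with IL-33 and to between 1 and 3 for the difference between responses, so single calls of the latter depend on the libraries, as given gene by gene below.

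**Figure D2:**
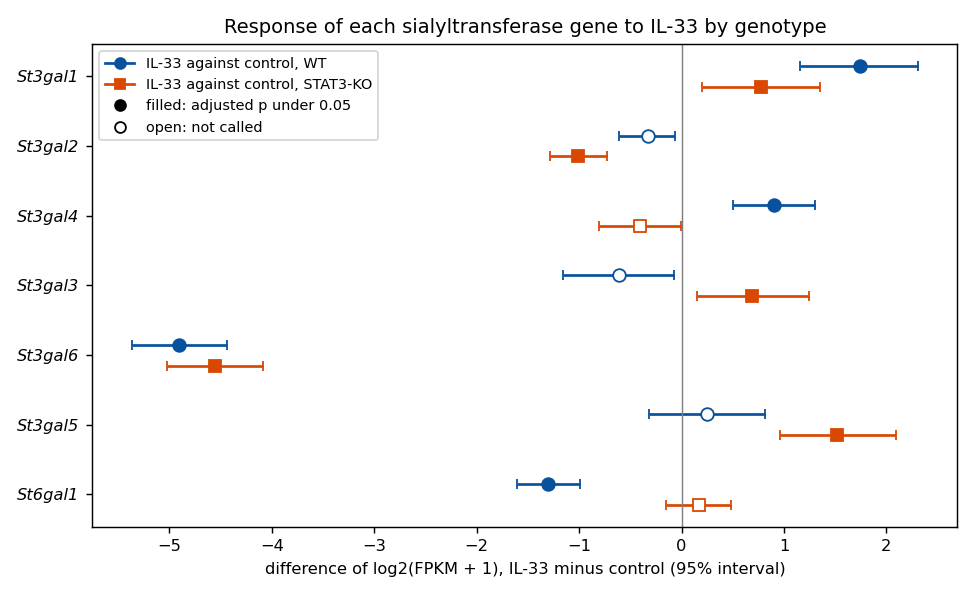
Difference of log2(FPKM + 1) between IL-33 and control (horizontal axis, 95% interval of limma) for each sialyltransferase gene in WT (circles) and STAT3-KO cells (squares), filled where the adjusted p is under 0.05. St3gal6 lies near -5 in both genotypes (-4.91 and -4.56), while the markers of St6gal1, St3gal4 and St3gal3 lie on opposite sides of 0.

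St3gal1 and St3gal2 encode the enzymes that cap the core 1 O-glycan of mucin-type proteins such as CD43, and St3gal2 also acts on gangliosides. St3gal1 (ENSMUSG00000013846, GRCm38 chromosome 15, 67102875 to 67113992, minus strand in the table; GENCODE M21 extends the gene to 67176830) measured 4.16 and 3.53 FPKM in WT control and 14 and 16.3 in WT with IL-33. The STAT3-KO libraries held 4.01 and 4.38 in control and 5.72 and 10.7 with IL-33. Both genotypes were thus higher with IL-33 in each library, and the 2 STAT3-KO libraries with IL-33 lay apart from each other, both below the WT libraries with IL-33. The rise was 3.94-fold in WT (1.74 ± 0.25, adjusted p = 0.0012) and 1.96-fold in STAT3-KO (0.78 ± 0.25, adjusted p = 0.0309), from the ratio of mean FPKM. With IL-33 St3gal1 was lower in STAT3-KO than in WT cells (-0.86 ± 0.25, adjusted p = 0.0307), whereas the difference between the responses was not called (-0.96 ± 0.36, adjusted p = 0.104). The rise in STAT3-KO was 0.37 without STAT3-KO IL-33 library 2 and 1.18 without library 1; it missed the threshold in the former case and without either STAT3-KO control library (0.72 and 0.83; adjusted p between 0.00386 and 0.171 over the fits without 1 library), and also with no filter or with only these 2 groups in the fit (adjusted p = 0.0802 and 0.0604). The lower level with IL-33 missed it without WT IL-33 library 1 or 2 (-0.96 and -0.75), without STAT3-KO IL-33 library 1 (-0.46) and with no filter (adjusted p = 0.0869), while the difference between responses passed without STAT3-KO IL-33 library 2 (-1.36, adjusted p = 0.019) and was -0.56 without library 1.

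St3gal2 (ENSMUSG00000031749, chromosome 8, 110919922 to 110972480, plus strand) was at 18.8 and 19.2 FPKM in WT control and 23.3 and 24.1 in STAT3-KO control. With IL-33 it was at 15.6 and 14.2 in WT and 11.1 and 11.5 in STAT3-KO, so that none of the 4 groups overlapped. It fell 2.1-fold with IL-33 in STAT3-KO cells (-1.01 ± 0.12, adjusted p = 0.000263), and in WT the difference was -0.33 ± 0.12 (adjusted p = 0.0583; 0.0467 with no filter and up to 0.297 under other alternatives). The difference between the responses was -0.67 ± 0.17 (adjusted p = 0.0325). In control the genotypes differed by 0.30 ± 0.12 (adjusted p = 0.484), and with IL-33 by -0.37 ± 0.12 (adjusted p = 0.0451). Both the last value and the difference between responses missed the threshold in each of the 8 fits without 1 library, with adjusted p from 0.055 to 0.202 and from 0.0503 to 0.113. The former also missed it after median-of-ratios rescaling (adjusted p = 0.0514) and with only the groups with IL-33 in the fit (adjusted p = 0.101).

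St3gal3, St3gal4 and St3gal6 act on lactosamine, the galactose-N-acetylglucosamine unit of N-glycans and of extended O-glycans, and the products of St3gal4 and St3gal6 take part in sialyl-Lewis X, the ligand of selectins. St3gal6 (ENSMUSG00000022747, chromosome 16, 58468125 to 58524243, minus strand) was the most abundant member in control cells, at 38.8 and 39.5 FPKM in WT and 40.2 and 36.1 in STAT3-KO. With IL-33 it measured 0.364 and 0.313 in WT and 1.03 and 0.361 in STAT3-KO, and no control library came near these levels. The ratio of means was 116 in WT (-4.91 ± 0.20, adjusted p = 2.02e-06) and 54.9 in STAT3-KO (-4.56 ± 0.20, adjusted p = 1.74e-06). The latter ratio was 106 without STAT3-KO IL-33 library 1 and 37.1 without library 2. With no filter both falls were still called (adjusted p = 0.000137 and 0.000102). These levels rest on about 3578 to 4169 reads per control library and about 31 to 104 with IL-33, above the 3 reads taken as a floor. The genotypes did not differ beyond their spread in control (-0.04 ± 0.20, 95% interval -0.50 to 0.42, adjusted p = 0.992) or with IL-33 (0.31 ± 0.20, interval -0.15 to 0.77, adjusted p = 0.277). The difference between the responses was 0.35 ± 0.29 (interval -0.30 to 1.00, adjusted p = 0.443). Without STAT3-KO IL-33 library 2 the level with IL-33 was higher in STAT3-KO by 0.60 (adjusted p = 0.0396), and without library 1 the difference was 0.02, with the libraries of both genotypes overlapping when all were kept. The fall kept its call in both genotypes under every alternative run.

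The RefSeq table of promoter windows (GRCm38.p6) held 8 windows for 5 of the 7 genes, with none for St3gal1 and St3gal2. The 250 bases before the upstream start site of St3gal6, at chr16:58524254-58524503 on the minus strand, are shown because this gene had the largest change of the 7 with IL-33. Capitals mark a match to the GATA motif AGATAA on either strand, which begins 220 bases before the start.

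St3gal6, upstream start: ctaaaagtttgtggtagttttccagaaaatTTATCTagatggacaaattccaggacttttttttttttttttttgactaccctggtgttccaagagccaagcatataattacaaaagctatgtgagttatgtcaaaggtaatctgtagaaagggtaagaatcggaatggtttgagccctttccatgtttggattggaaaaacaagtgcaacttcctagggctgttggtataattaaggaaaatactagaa

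This window had 34.8% G and C, against a median of 52.4% over the 32851 windows of the table. Windows were searched on both strands for AGATAA (in 9.99% of all windows), for the STAT core TTCNNNGAA (7.02%), for the AP-1 motif TGANTCA (6.75%) and for the NF-kB motif (7.25%). The second start site of St3gal6 lies 3′ of the first and its window held 1 NF-kB match, 123 bases before the start; 193 of its 250 bases are in annotated exons and it is not printed. No window of the 5 genes held the STAT core, and those of St3gal3, St3gal4 and St3gal5 held none of the 4 motifs. A match, or its absence, describes the letters of these windows and nothing more.

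St3gal4 (ENSMUSG00000032038, chromosome 9, 35046576 to 35119268, minus strand) measured 9.48 and 12.1 FPKM in WT control, 10.5 and 11.1 in STAT3-KO control, 19.6 and 22.2 in WT with IL-33 and 6.86 and 9.01 in STAT3-KO with IL-33. The WT libraries with IL-33 were the highest and the STAT3-KO libraries with IL-33 the lowest, with the control libraries of both genotypes overlapping in between. IL-33 raised it 1.94-fold in WT (0.90 ± 0.17, adjusted p = 0.00499), and in STAT3-KO the difference was -0.41 ± 0.17 (adjusted p = 0.0797; -0.58 with 0.0418 without STAT3-KO IL-33 library 2, and -0.24 with 0.354 without library 1). With IL-33 it was 2.64-fold lower in STAT3-KO than in WT cells (-1.30 ± 0.17, adjusted p = 0.000986), and the difference between responses was -1.31 ± 0.25 (adjusted p = 0.0114). The last call was lost without WT IL-33 library 2 (-1.23, adjusted p = 0.0521) and kept without each of the other libraries.

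St3gal3 (ENSMUSG00000028538, chromosome 4, 117932154 to 118134914, minus strand) showed the opposite order with IL-33. It measured 4.22 and 3.53 FPKM in WT control, 3.42 and 4.39 in STAT3-KO control, 2.43 and 1.95 in WT with IL-33 and 5.38 and 8.72 in STAT3-KO with IL-33. Neither group with IL-33 overlapped a control group. With IL-33 the level was 3.22-fold higher in STAT3-KO than in WT cells (1.31 ± 0.24, adjusted p = 0.00401), a call that held without any 1 library (1.00 to 1.61). The IL-33 response was -0.61 ± 0.24 in WT (adjusted p = 0.0757) and 0.69 ± 0.24 in STAT3-KO (adjusted p = 0.039), a difference of 1.30 ± 0.34 (adjusted p = 0.035). The rise in STAT3-KO was 0.39 without STAT3-KO IL-33 library 2, 0.55 and 0.84 without STAT3-KO control library 1 and 2 and 0.69 without either WT IL-33 library, each time short of the threshold, as it was with no filter or with only these 2 groups in the fit (adjusted p = 0.0885 and 0.0602). The difference between responses missed it with no filter (adjusted p = 0.0937) and in 6 of the 8 fits without 1 library, all but those without WT control library 2 or STAT3-KO IL-33 library 1 (adjusted p between 0.0247 and 0.118 over the 8); the WT response passed it without either STAT3-KO IL-33 library (adjusted p = 0.0462 and 0.0484, against up to 0.272 under other alternatives).

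St3gal5 encodes GM3 synthase, the enzyme that makes the first ganglioside from lactosylceramide. St3gal5 (ENSMUSG00000056091, chromosome 6, 72097592 to 72154571, plus strand) was at 0 and 0.386 FPKM in WT control, 0.25 and 0.214 in STAT3-KO control and 0.249 and 0.563 in WT with IL-33. The STAT3-KO libraries with IL-33 held 2.79 and 2.3, above every other library. In reads this was 0 to 24 in the 6 other libraries against 119 and 107. As the gene passed the filter through those 2 libraries alone, its difference was in part set by the filter. IL-33 raised it 11-fold in STAT3-KO (1.52 ± 0.25, adjusted p = 0.00133) on a low base, and in WT the difference was 0.25 ± 0.25 (95% interval -0.32 to 0.81, adjusted p = 0.46). With IL-33 it was 6.26-fold higher in STAT3-KO than in WT cells (1.34 ± 0.25, adjusted p = 0.00428), and 10.2-fold without WT IL-33 library 2. With no filter both calls were kept (adjusted p = 0.00444 and 0.0117). The difference between the responses was 1.27 ± 0.35 (adjusted p = 0.0439); it was 1.86 and missed the threshold with a pseudocount of 0.1 (adjusted p = 0.297), missed it with no filter (adjusted p = 0.0752), and missed it in 5 of the 6 fits without 1 library in which the gene was still tested, all but the one without WT control library 1 (adjusted p between 0.038 and 0.139).

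St6gal1 encodes the enzyme that attaches sialic acid to lactosamine in the linkage bound by CD22. St6gal1 (ENSMUSG00000022885, chromosome 16, 23224740 to 23360350, plus strand) measured 30.8 and 29.9 FPKM in WT control and 30.7 and 27.8 in STAT3-KO control. It measured 11 and 12.5 in WT with IL-33 and 29.8 and 36.2 in STAT3-KO with IL-33. Only the WT libraries with IL-33 stood apart, below the 6 others, which overlapped. St6gal1 fell 2.58-fold with IL-33 in WT (-1.30 ± 0.14, adjusted p = 0.00022), whereas in STAT3-KO the difference was 0.17 ± 0.14 (interval -0.15 to 0.48, adjusted p = 0.334). With IL-33 the level was 2.81-fold higher in STAT3-KO than in WT cells (1.41 ± 0.14, adjusted p = 0.000196), and the difference between responses was 1.47 ± 0.19 (adjusted p = 0.00291). These 3 calls held in each fit without 1 library, with the difference between responses at 1.33 to 1.60. Rescaling by median-of-ratios shifted the median response of all genes to IL-33 from -0.138 to 0.002 in WT and from -0.182 to 0 in STAT3-KO. The response of St6gal1 in STAT3-KO was then 0.38 and passed the threshold (adjusted p = 0.0468, the lowest over its alternatives, which reached 0.881).

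The promoter table held 3 start sites of St6gal1, which are shown because a value per gene adds up transcripts from all of them and cannot say which was in use. They lie on the plus strand at chr16:23224490-23224739, chr16:23225771-23226020 and chr16:23290220-23290469. Capitals mark AGATAA in the first window, 89 bases before the start, and TGANTCA in the third, 15 bases before the start; the second held none of the 4 motifs.

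St6gal1, start 1: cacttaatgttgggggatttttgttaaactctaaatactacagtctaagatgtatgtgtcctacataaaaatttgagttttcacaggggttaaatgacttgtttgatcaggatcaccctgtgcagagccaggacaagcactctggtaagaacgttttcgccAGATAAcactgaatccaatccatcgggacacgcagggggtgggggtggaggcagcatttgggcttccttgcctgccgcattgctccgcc

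St6gal1, start 2: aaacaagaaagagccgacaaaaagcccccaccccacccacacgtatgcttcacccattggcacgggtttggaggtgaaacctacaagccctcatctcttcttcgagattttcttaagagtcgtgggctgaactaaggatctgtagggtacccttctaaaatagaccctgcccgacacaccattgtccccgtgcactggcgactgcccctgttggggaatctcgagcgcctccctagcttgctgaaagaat

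St6gal1, start 3: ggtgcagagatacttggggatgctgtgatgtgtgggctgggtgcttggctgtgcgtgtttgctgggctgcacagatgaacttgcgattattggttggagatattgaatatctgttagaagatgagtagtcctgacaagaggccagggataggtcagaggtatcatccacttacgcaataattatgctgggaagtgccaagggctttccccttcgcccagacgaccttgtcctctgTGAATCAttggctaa

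The windows had 47.2%, 52.8% and 49.6% G and C in this order, and none of their bases is in an annotated exon.

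Exons of 3 members overlap those of a gene on the other strand, and the sources used here do not state whether strand was used in counting. Dcbld2, opposite St3gal6, was at no more than 0.658 FPKM in any library, 4930581F22Rik, opposite St3gal4, at no more than 0.392 and BC106179, opposite St6gal1, at no more than 0.0594. All 3 were far below the higher levels of their partners, while Dcbld2 was of the order of St3gal6 in libraries with IL-33.

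Summed over the 7 genes, the level was 106 and 108 FPKM in WT control and 112 and 108 in STAT3-KO control. With IL-33 it was 63.3 and 68 in WT and 62.7 and 78.8 in STAT3-KO, below every control library. The make-up of this sum differed between the groups. St3gal6 held 33.5% to 36.5% of it in control and 0.458% to 1.64% with IL-33. St6gal1 held 25.7% to 29% in control, 17.4% and 18.4% in WT with IL-33 and 47.6% and 46% in STAT3-KO with IL-33. St3gal4 held 31% and 32.6%, and St3gal1 22.1% and 24%, of the sum in WT with IL-33, against 10.9% and 11.4%, and 9.12% and 13.6%, in STAT3-KO with IL-33. Without St6gal1 the 6 St3gal genes summed to 75.4 to 81.7 FPKM in control, 52.3 and 55.5 in WT with IL-33 and 32.9 and 42.6 in STAT3-KO with IL-33. These sums are descriptions of mRNA levels with no test.

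**Figure D3:**
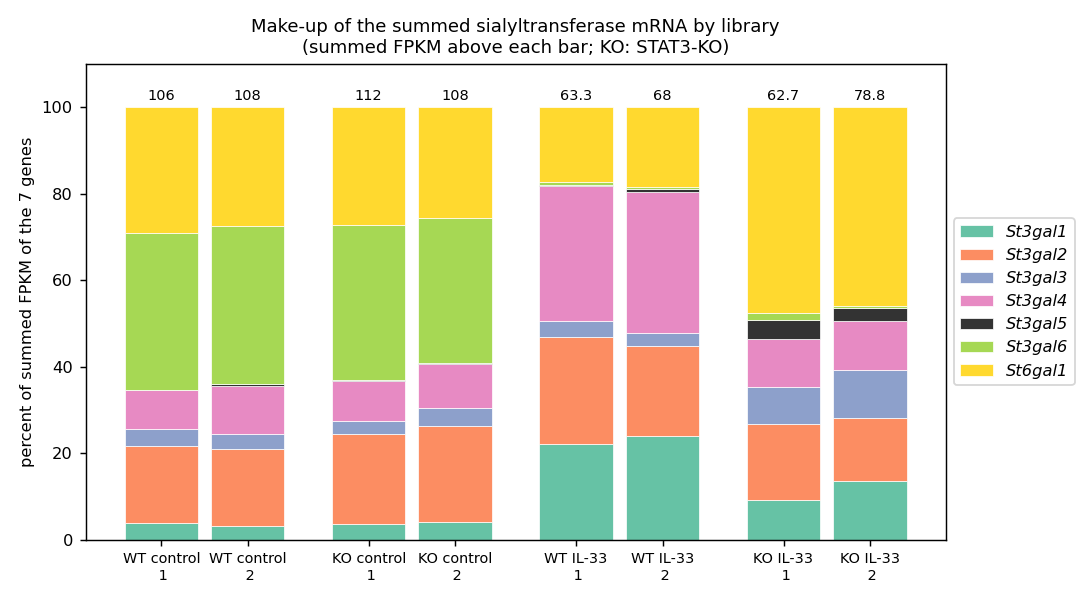
Share of each gene in the summed FPKM of the 7 sialyltransferase genes (vertical axis, percent) in each of the 8 libraries, with the sum in FPKM above each bar. St3gal6 fills 33.5% to 36.5% of the control bars and at most 1.64% with IL-33, and St6gal1 fills 47.6% and 46% of the STAT3-KO bars with IL-33.

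All 7 genes had group means that spanned at least 1 on the log2(FPKM + 1) scale, from 1.01 for St3gal2 to 4.91 for St3gal6. For each, the 3 genes of nearest pattern were those with the smallest root mean square difference over the 8 libraries after centring. For St3gal6 they were Lpcat2 (0.41), Ighm (0.55) and Ifi208 (0.65). These distances are larger than those of the other members, but they are not scaled by the size of the change. The other members spanned at most 1.74, against 4.91 for St3gal6. For St6gal1 the nearest genes were Lsp1 (0.13), Reep3 (0.16) and Ptpra (0.18). Lsp1 was at 124 and 118 FPKM in the control cells of WT and STAT3-KO and 49.7 and 120 with IL-33, again WT first. For St3gal4 they were Ibtk (0.06), Mbd1 (0.07) and Nup155 (0.09), and for St3gal1 they were Tgfb3 (0.15), Nsf (0.18) and Prep (0.19). For St3gal2 they were Napg (0.03), Gpc1 (0.06) and Idua (0.07), for St3gal3 Nmnat3 (0.12), Tnnt3 (0.13) and Mmachc (0.14), and for St3gal5 Bmp1 (0.11), Prss56 (0.14) and Wdr61 (0.14). Tgfb3, Gpc1, Tnnt3, Bmp1 and Prss56 had no group mean above 2.61 FPKM.

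Beside the 7, 13 other sialyltransferase genes were listed, of which 5 were tested. Of these 5, 2 fell and 0 rose in WT with IL-33 and 1 rose and 1 fell in STAT3-KO. Beside these and the following counts stand the shares of all tested genes, 14.5% higher and 21.6% lower in WT and 20.4% higher and 30.6% lower in STAT3-KO. Counts as small as 1 of 5 are near them. St6galnac3, which adds sialic acid to the inner sugar of O-glycans and gangliosides, fell in both, from 10.1 to 2.34 FPKM in WT (-1.73 ± 0.19) and from 10.9 to 1 in STAT3-KO (-2.58 ± 0.19). St6galnac2 fell in WT (from 4.63 to 1.9, with a second entry of that symbol at no more than 0.0353), and St6galnac6 rose in STAT3-KO (from 7.32 to 13.1). St6galnac2 in STAT3-KO (from 1.94 to 1.51) and St6galnac6 in WT (from 6.41 to 6.12) were not called. The difference between responses was called for neither (limma adjusted p = 0.151 and 0.076). St6galnac4 was between 8.5 and 9.57 in every group mean. St8sia4, which extends polysialic acid, was at 6.77 and 12.7 FPKM in WT and 5.69 and 2.89 in STAT3-KO without and with IL-33, with neither response called and the WT control libraries far apart (3.55 and 10); the responses differed between the genotypes (-1.74 ± 0.49, adjusted p = 0.0485). St6galnac5, St8sia1 and St8sia6 were at no more than 0.535, 0.121 and 0.132 FPKM.

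Genes that make and carry CMP-sialic acid rose with IL-33 in 6 of 11 cases in WT and fell in 2, and rose in 5 and fell in 1 in STAT3-KO. Among all genes 14.5% rose and 21.6% fell in WT and 20.4% and 30.6% in STAT3-KO. The list's median was 0.54 in WT and 0.36 in STAT3-KO, beside -0.14 and -0.18 over all genes. Renbp and Nanp passed the filter through the treatment where they are high, and without them 5 of 9 rose and 1 fell in WT and 4 rose and 0 fell in STAT3-KO. Cmas, which activates sialic acid with CMP, rose from 3.19 to 5.5 FPKM in WT and from 2.16 to 5.59 in STAT3-KO. Gfpt1 (from 2.2 to 7.02 in WT), Gnpnat1 (from 11.2 to 19.6) and Pgm3 (from 4.42 to 8.9), which lead to UDP-N-acetylglucosamine, rose in both genotypes, as did Renbp, an epimerase of N-acetylglucosamine (from 0.258 to 4.92 in WT and from 0.494 to 4.18 in STAT3-KO). Slc35a1, the Golgi transporter of CMP-sialic acid, fell in WT from 13.5 to 9.53 and was at 15.1 and 14.5 in STAT3-KO; with IL-33 it was higher, and Uap1 lower (24.7 in WT and 15.8 in STAT3-KO), in STAT3-KO than in WT. Nagk was between 12.7 and 17.6 FPKM in the group means without a call. None of the 11 was called in the difference between responses by limma, with 1 at an unadjusted p under 0.05. Among all tested genes 15.1% were called there, so this lack of calls is not read as a result about the list.

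Of 7 tested genes of sialic acid removal and turnover, 0 rose and 2 fell in WT with IL-33 and 0 rose and 3 fell in STAT3-KO, against 21.6% and 30.6% lower among all genes. Npl passed the filter only with the control libraries, where it is high, and without it 1 of 6 fell in WT. The sialidase Neu3 fell in WT (from 11.7 to 7.43 FPKM; from 9.67 to 7.49 in STAT3-KO, not called), as did Npl, the lyase that breaks sialic acid down (from 4.56 to 0.107), whose STAT3-KO control libraries held 3.63 and 0.8. In STAT3-KO the falls were those of Slc17a5, the lysosomal sialic acid exporter (from 11.9 to 4.2), Ctsa, which protects lysosomal sialidase (from 18.9 to 14.1), and Casd1, which acetylates sialic acid (from 2.34 to 1.31). In WT Slc17a5 went from 9.63 to 6.6 (limma adjusted p = 0.051), Ctsa from 18.9 to 18.6 and Casd1 from 1.8 to 2.16, without a call. None of the 7 tested genes was called in the difference between responses, beside 15.1% of all tested genes. Slc17a5 came near the threshold there (adjusted p = 0.0506).

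The enzymes that build the acceptors of the 7 were counted likewise. Of 16 tested O-glycan and selectin ligand enzymes, 2 rose and 3 fell in WT and 2 rose and 6 fell in STAT3-KO, beside 14.5% higher and 21.6% lower among all genes in WT and 20.4% and 30.6% in STAT3-KO. The WT counts are near those shares. Galnt10 and Galnt12, which start O-glycans, fell in both genotypes. Galnt10 went from 6.74 to 1.11 FPKM in WT and from 6.66 to 1.45 in STAT3-KO. Galnt12 went from 7.09 to 1.13 in WT and from 5.63 to 0.824 in STAT3-KO. Galnt1 rose in WT (from 22.7 to 34.1), and in STAT3-KO it went from 20.6 to 26.2 (limma adjusted p = 0.0545). Its responses were not called different between genotypes (adjusted p = 0.392). The responses of Galnt4, Galnt6 and Tpst1 differed between genotypes (limma adjusted p = 0.0346, 0.00138 and 0.021). Galnt6 was at 21.8 and 25.9 in WT and 21.2 and 8.34 in STAT3-KO. Tpst1, a tyrosine sulfotransferase, was at 5.65 and 5.25 in WT and 2.62 and 11.7 in STAT3-KO. Gcnt1, the core 2 branching enzyme, and B3gnt3 were lower in STAT3-KO than in WT with IL-33 (0.0202 against 1.32, and 5.69 against 15.4), but Gcnt1 passed the filter through the WT libraries alone, which in part set its call.

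Of 13 tested N-glycan enzymes, 0 rose and 2 fell in WT and 0 rose and 4 fell in STAT3-KO. Among all genes 21.6% and 30.6% fell, and the falls counted here are near or below those shares. B4galt1, which adds the galactose that St3gal4, St3gal6 and St6gal1 cap, was at 73.8 and 62.9 FPKM in WT and 83 and 29.7 in STAT3-KO. The branching enzyme Mgat5 was at 11.6 and 15.3 in WT and 10.9 and 7.58 in STAT3-KO. The responses of both differed between genotypes (limma adjusted p = 0.0021 for B4galt1 and 0.0335 for Mgat5). Fut8 (from 26.5 to 12.3) and B3gnt5 (from 1.72 to 0.213, tested only because it was high in WT control) fell in WT, and B4galt1, Mgat5, B4galt3 (from 5.24 to 1.66) and Man2a1 (from 2.38 to 1.01) in STAT3-KO. In STAT3-KO Fut8 went from 20.7 to 16 and B3gnt5 from 0.623 to 0.168, without a call. In WT B4galt3 went from 3.71 to 2.1 and Man2a1 from 1.98 to 1.3, also without a call. The responses of Fut8, B3gnt5, B4galt3 and Man2a1 were not called different between genotypes (limma adjusted p = 0.0506, 0.178, 0.199 and 0.499). Man2a2 was lower in STAT3-KO than in WT with IL-33 (4.79 against 7.55), and Mgat2, whose WT control libraries held 55.1 and 12.5, was not called in any comparison.

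Among 10 tested ganglioside genes, 3 rose and 3 fell in WT and 3 rose and 4 fell in STAT3-KO, beside 14.5% higher and 21.6% lower among all genes in WT and 20.4% and 30.6% in STAT3-KO. B4galt5 was tested only because it was high in WT with IL-33, and without it 2 of 9 rose in WT. Ugcg, which makes the glucosylceramide at the root of the pathway that St3gal5 enters, was at 3.87 and 3.84 FPKM in WT and 4.01 and 1.19 in STAT3-KO, and A4galt, which competes for the substrate of St3gal5, at 5.31 and 3.99 in WT and 4.81 and 12.6 in STAT3-KO. Gm2a, an activator of ganglioside breakdown, rose from 436 to 603 in WT and from 456 to 949 in STAT3-KO. The responses of Ugcg, A4galt and Gm2a differed between genotypes (limma adjusted p = 0.0193, 0.00824 and 0.0127). B4galnt1, which extends GM3, fell from 66.9 to 31.8 in WT and from 62 to 34.9 in STAT3-KO. Glb1 rose in both (from 10.9 to 15.3 and from 15.2 to 34.7), and Hexa fell in WT (from 75.7 to 55.9). In STAT3-KO Hexa went from 62.4 to 56.5 without a call, and its responses were not called different (limma adjusted p = 0.19).

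Of 5 tested selectins and selectin ligand proteins, 1 rose and 3 fell in each genotype, beside 14.5% higher and 21.6% lower among all genes in WT and 20.4% and 30.6% in STAT3-KO. Selplg, the P-selectin ligand, fell from 509 to 366 FPKM in WT and from 537 to 306 in STAT3-KO, Cd44 from 161 to 90.3 and from 200 to 135, and Glg1 from 11.4 to 6.52 and from 14.6 to 7.68. Cd24a rose from 0.19 to 5.81 in WT and from 0 to 11.3 in STAT3-KO, and its responses differed (limma adjusted p = 0.0351). It passed the filter through the IL-33 libraries alone, which in part set its calls, and without it 0 of 4 rose. Of 10 listed sialic acid receptors 0 were tested, with Cd22 at no more than 0.647 FPKM and Mag at no more than 0.151. In control cells none of the 8 lists had a called member in the comparison of genotypes by limma, with between 0 and 6 of their members at an unadjusted p under 0.05. The sialic acid receptors, with 0 tested, could have none. Among all tested genes 0.463% were called there, so the lack of calls in the other lists is near that share.

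**Figure D4:**
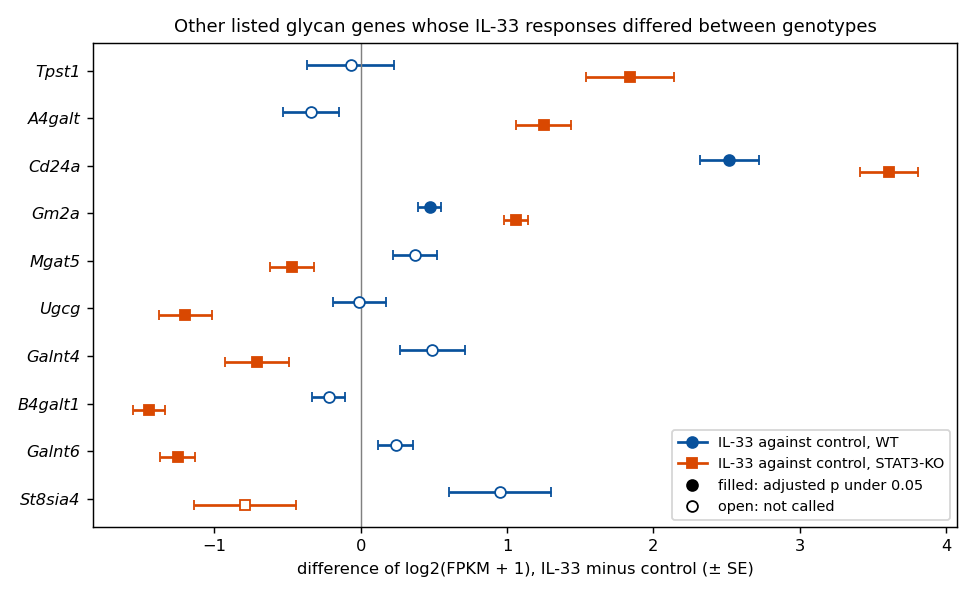
Difference of log2(FPKM + 1) between IL-33 and control (horizontal axis, ± SE) in WT (circles) and STAT3-KO cells (squares) for the 10 listed genes outside the 7 whose responses differed between genotypes, filled where the adjusted p is under 0.05. St8sia4, Galnt6, B4galt1, Galnt4, Ugcg and Mgat5 lie further left in STAT3-KO, and Tpst1, A4galt, Cd24a and Gm2a further right. The 10 come from 67 tested genes of the lists, a number near the 15.1% called among all tested genes.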

How the data were processed

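RNA-seq was made from 8 libraries of cultured mouse lung ILC2s in 4 groups of 2. In the deposited table each gene has 1 FPKM value per library; Bowtie2, RSEM and GRCm38 are named for it per the submitters' processing notes. Versions, annotation and strand setting are not given in the sources used here. Of its 22075 genes 0 were at 0 in every library.

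Differences of log2(FPKM + 1), a pseudocount of 1, were tested with limma 3.58.1 in R 4.3.3 (1 mean per group over all 8 libraries, eBayes with a trend; degrees of freedom were 4 residual and, at the median, 4.459 prior) for the 11877 genes at 1 FPKM or higher in 2 or more libraries. P values are two-sided and adjusted by Benjamini-Hochberg over all tested genes of a comparison, called under 0.05. A fold is a ratio of mean FPKM; log2 differences understate the change of low genes. The fit was tested on simulated data.

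FPKM times merged exon length (GENCODE M21) gave whole reads for 5 of the 7 genes in every library (within 0.1 read); for St3gal1 and St3gal6 reads are approximate. In a gene of 1 kb, 3 reads are 0.151 to 0.189 FPKM, which covers counting error alone.

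The 7 genes, the 8 pathway lists and the 9 marker lists were chosen with earlier results of these data known. Named were all 7 and, from each list, members called in the difference between responses and the 3 of smallest p in each other comparison; nearest patterns left out gene models named Gm or Rik. Tables were made with pandas 2.3.3 and numpy 2.4.6 under Python 3.11.15, and figures with matplotlib 3.10.9. Alternatives were another pseudocount (0.1), filters (none, or an FPKM of at least 5), scalings, the replicate block, 2-group fits and leaving out each library.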

Additional observations from a re-analysis of the deposited data

Results flagged for a closer look

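These results are listed because the IL-33 response differed between STAT3-KO and WT cells by limma's test of that difference (STAT3-KO minus WT, log2(FPKM + 1), adjusted p under 0.05 over all tested genes). Among the 7 sialyltransferase genes these were St6gal1 (1.47), St3gal3 (1.30), St3gal5 (1.27), St3gal4 (-1.31) and St3gal2 (-0.67). St3gal5 was tested only because it was high in STAT3-KO with IL-33, the group that makes its difference positive, and it missed the threshold with no filter (adjusted p = 0.0752). Among the other listed genes the difference was positive for Tpst1 (1.91), A4galt (1.58), Cd24a (1.10) and Gm2a (0.59). Cd24a passed the filter through the IL-33 libraries alone. The difference was negative for St8sia4 (-1.74), Galnt6 (-1.49), B4galt1 (-1.23), Galnt4 (-1.21), Ugcg (-1.19) and Mgat5 (-0.84). The other listed genes flagged here come from 67 tested, and their number is near the 15.1% called among all tested genes. Fits without 1 library are not given for them. Of the 5 sialyltransferase genes, St6gal1 kept this call in each fit without 1 library. St3gal4 lost it in 1 such fit, and St3gal2, St3gal3 and St3gal5 lost it in most of them.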

How the results depend on the processing

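Over 35 comparisons of a member, 21 kept their side of the threshold under every alternative run and no called direction reversed. The members called numbered 3 of 7 with no filter, both for IL-33 in STAT3-KO and for the difference between responses, and 3 for IL-33 in STAT3-KO with only those 2 groups in the fit. Without 1 library the members called ranged from 4 to 5 for IL-33 in WT, 3 to 5 in STAT3-KO, 0 to 0 for the genotypes in control, 3 to 5 with IL-33 and 1 to 3 for the difference between responses. Among all genes, 34 were called between genotypes in control with a pseudocount of 0.1 and 7 with only those groups in the fit, against 55, and 1149 in the difference between responses with no filter, against 1799. Without 1 library these counts ranged over 2528 to 4344, 4245 to 6244, 1 to 43, 2141 to 4085 and 857 to 2048 in the same order. Median-of-ratios rescaling gave 2312 higher and 1867 lower genes for IL-33 in WT (1724 and 2561 as deposited) and 3161 and 2742 in STAT3-KO (2425 and 3638). Deviations of same-numbered libraries from their group means correlated at -0.06 to 0.04, so no shift shared by same-numbered libraries was seen across genes. This cannot exclude pairing, as the labels do not give the origin of the replicates. With the replicate block 4, 6, 0, 5 and 4 members and 4271, 6015, 37, 3813 and 1827 genes were called; it called St3gal4 for IL-33 in STAT3-KO (-0.41, adjusted p = 0.043) and not St3gal2 for the genotypes with IL-33 (adjusted p = 0.0576) or St3gal5 in the difference (adjusted p = 0.0535). The cause of these changes was not tested. A lone library in a group was assumed to vary like the others, and St3gal5 could not be tested without a STAT3-KO IL-33 library.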
